A study of Triticum aestivum with 6 samples.

Results

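The genes described here are the nuclear factor Y (NF-Y) subunits of bread wheat (Triticum aestivum) roots. They were found by the protein name that the authors' deposited table gives each gene from its best UniProt match: the first name after "Full=" had to read "nuclear transcription factor Y subunit". The rule found 64 of 83219 genes, of which 19 matched an A subunit (NF-YA), 24 a B subunit (NF-YB) and 21 a C subunit (NF-YC). The rule uses no measured value. Seedlings of the wild type JW1 germinated for 3 days, lost their endosperm, spent 3 days on a medium with nitrate at 2 mM, followed by 2 days on a medium lacking nitrogen. In the last 3 hours, 3 samples received nitrate (2N: potassium nitrate at 2 mM, a salt the labels write as KNO) and 3 samples received none (0N: 2 mM KCl), so that nitrate and chloride changed together and cannot be told apart. All 6 libraries are poly(A) RNA of whole roots, in which fewer cells of a type and less RNA per cell cannot be told apart. The labels do not say whether the replicates are separate cultures or pools, and p-values measure only the spread between these samples.

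NF-Y is a trimer that binds the CCAAT box of promoters. NF-YB and NF-YC carry a histone fold and pair first, and NF-YA then joins the pair and reads the CCAAT letters. Plants hold many genes for each subunit, and in Arabidopsis the NF-YA transcripts are targets of the microRNA family miR169. A wheat NF-YA gene has been described as induced by low nitrogen supply, and NF-YB and NF-YC pairs can also bind CCT-domain proteins such as CONSTANS in place of NF-YA. The names used below, such as A-10 or C-6, are those of the best match and not of a curated wheat gene. All 19 NF-YA genes matched Arabidopsis proteins, 19 NF-YB genes and 20 NF-YC genes matched rice proteins, and the other members matched Arabidopsis or, in 1 case, maize. For 2 NF-YA members the table lists a second match.

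The libraries held 16208512 to 17645686 estimated reads, of which 7092 to 7793 fell on NF-Y genes (0.0402% to 0.0474%). The nitrate treatment was visible in nitrate and nitrite reductase genes, of which all 8 and all 3 tested ones were higher in 2N. The tissue label is root, while a second label reads leaf tissue. The 7 Casparian strip membrane protein genes, markers of the root endodermis, were all detected, with a summed 194.5 to 246.8 TPM (a deposited level per transcript length) in 2N and 145.4 to 174.8 TPM in 0N, and 4 of the 6 tested were higher in 2N. Of 112 genes of 4 leaf marker lists (Rubisco small subunit, Rubisco activase, chlorophyll a-b binding and photosystem I proteins), 18 had no reads, and all together held 0.0211% of the reads on average. Of the 62 tested, 0 were higher and 21 lower in 2N by edgeR's quasi-likelihood test (adjusted p under 0.05). None of the tested Rubisco small subunit and activase genes was called, though their median log2 fold changes (2N over 0N) were -0.861 and -1.342. The summed level of the leaf markers overlapped between the groups, at 95.46, 186.2 and 142.6 CPM in 2N and 251, 179.1 and 411.8 CPM in 0N (CPM: counts per 1e+06 reads after TMM scaling). Summed by list, chlorophyll a-b binding genes stood apart, at 53.98 to 92.57 TPM in 2N and 103.6 to 225 TPM in 0N. The other leaf lists overlapped.

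Of the 64 members, 60 had at least 1 read and 46 passed the filter on low counts: all 19 NF-YA, 18 NF-YB and 9 NF-YC genes. 4 of the 46 changed with nitrate, which is 8.7% of them, while 15.5% of all 54313 tested genes changed. 3 members were lower in 2N, all of them NF-YA, where 7.93% of all tested genes were lower. 1 member was higher in 2N, an NF-YC gene, where 7.57% of all tested genes were higher. No NF-YB gene passed. Changes were small: log2 fold changes (2N over 0N) lay between -0.70 and 0.48, and 0 members reached a 2-fold change (1 on the log2 scale), against 6.3% of all tested genes. The CPM values of the 2 groups did not overlap in 13 of the 46 members (28.3%) and in 32.4% of all tested genes. The shares of called and of non-overlapping members were thus at or below those of the genes at large.

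**Figure D1:**
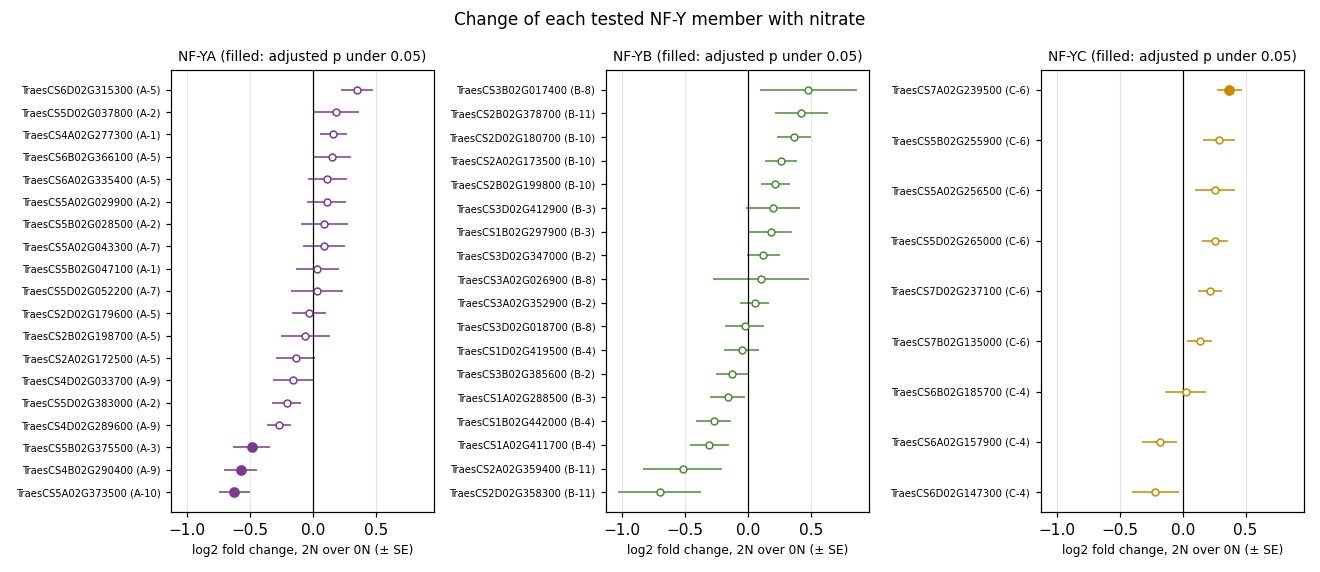
Log2 fold change of each tested NF-Y member, 2N over 0N, with its standard error, for NF-YA (left), NF-YB (middle) and NF-YC (right). Filled points passed an adjusted p of 0.05: 3 NF-YA genes lie below 0, 1 NF-YC gene lies above 0 and no NF-YB point is filled.

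NF-YA, the subunit that reads the CCAAT letters, gave 3 falls and 0 rises among 19 tested genes, with a median log2 fold change of 0.03 beside 0.00 over all genes. 10 members had a positive and 9 a negative fold change, but 6 and 13 with library totals and 4 and 15 with TPM, where the median was -0.067 and -0.072 to -0.08 and that of all genes was lower as well (-0.093 and -0.085 to -0.097). At an unadjusted p under 0.05, 1 member was higher and 4 lower, which is 26.3% of the class, against 27.8% of all tested genes. DESeq2 called 0 higher and 3 lower, where it called 12.2% of all tested genes.

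The largest fall was that of TraesCS5A02G373500 on chromosome 5A, whose best match is A-10. It stood at 14.7, 11.1 and 14.8 CPM in 2N, against 21.9, 22.0 and 18.6 CPM in 0N. Every 2N library lay below every 0N library, and the log2 fold change was -0.625 ± 0.124 (SE; edgeR quasi-likelihood test, adjusted p = 0.003). TraesCS4B02G290400 on 4B, similar to A-9, had 11.2, 9.25 and 10.7 CPM in 2N and 16.4, 17.2 and 12.7 CPM in 0N. The groups again stood apart, and the log2 fold change was -0.57 ± 0.13 (edgeR adjusted p = 0.00784). Both genes passed in all 14 alternatives, with adjusted p between 0.000127 and 0.0143 for the first and between 0.000947 and 0.0349 for the second.

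TraesCS5B02G375500 on 5B, similar to A-3, was the third. It had 25.1, 16.2 and 24.9 CPM in 2N, against 32.5, 29.3 and 30.9 CPM in 0N, with a log2 fold change of -0.49 ± 0.15 (edgeR adjusted p = 0.0447). The groups did not overlap, and the second 2N library lay far below the other 2N libraries. Without 2N replicate 2 the log2 fold change was -0.305 and the adjusted p 0.0607, and without 0N replicate 1, 2 or 3 the adjusted p was 0.132, 0.0737 and 0.0902. It passed in 10 of 14 alternatives, with adjusted p from 0.015 to 0.132.

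TraesCS5D02G383000 on 5D, similar to A-2, was the most abundant NF-Y gene, with a mean of 34.55 ± 5.17 TPM in 2N libraries and 43.0 ± 3.32 TPM in 0N libraries (SD, n = 3). It had 48.4, 36.0 and 47.4 CPM in 2N and 53.8, 50.3 and 48.2 CPM in 0N, and its groups overlapped by a narrow margin on this scale, though not in TPM (log2 fold change -0.21 ± 0.11, edgeR adjusted p = 0.256). With the called genes on 5A and 5B it makes 3 members on 5A, 5B and 5D that match 3 different Arabidopsis proteins. Whether they are copies of a single ancestral gene is not stated in the labels or files.

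The other A-9 matches on chromosome group 4 had negative fold changes too. TraesCS4D02G289600 had 17.7, 16.4 and 17.5 CPM in 2N against 21.9, 19.7 and 20.4 CPM in 0N, without overlap (log2 fold change -0.27 ± 0.10, edgeR adjusted p = 0.0782). It passed with library totals and with TPM in place of TMM-scaled counts (adjusted p 0.0195 to 0.0329). TraesCS4D02G033700 had 8.17, 7.80 and 9.31 CPM in 2N and 6.96, 10.8 and 10.5 CPM in 0N, with overlap. Summed over these 3 genes, A-9 matches had 37.0, 33.4 and 37.5 CPM in 2N, against 45.3, 47.7 and 43.6 CPM in 0N, and the groups stood apart.

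A-5, A-1, A-2 and A-7 matches gave no call. A-5 is in Arabidopsis a factor of the drought and abscisic acid response. Of 6 A-5 matches, the 3 on chromosome group 6 had positive fold changes, and the 3 on group 2 had negative ones between -0.14 and -0.03. The largest positive change of the class was that of TraesCS6D02G315300, with 10.03, 8.44 and 8.65 CPM in 2N and 7.55, 7.05 and 6.64 CPM in 0N (log2 fold change 0.35 ± 0.13, edgeR adjusted p = 0.0791). Its groups did not overlap, but it passed in 0 of 14 alternatives (adjusted p 0.0709 to 0.28). Summed A-5 matches on group 6 had 35.0, 25.3 and 33.7 CPM in 2N and 27.7, 25.9 and 28.8 CPM in 0N, and the second 2N library lay below all others.

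That library, 2N replicate 2, was the lowest of the 3 nitrate libraries in 16 of 19 NF-YA genes and in 7 of 9 NF-YC genes, but in 6 of 18 NF-YB genes. Over all tested genes it was the lowest in 38.3%. Without it, 2 NF-YA genes passed as lower and 2 NF-YC genes as higher.

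**Figure D2:**
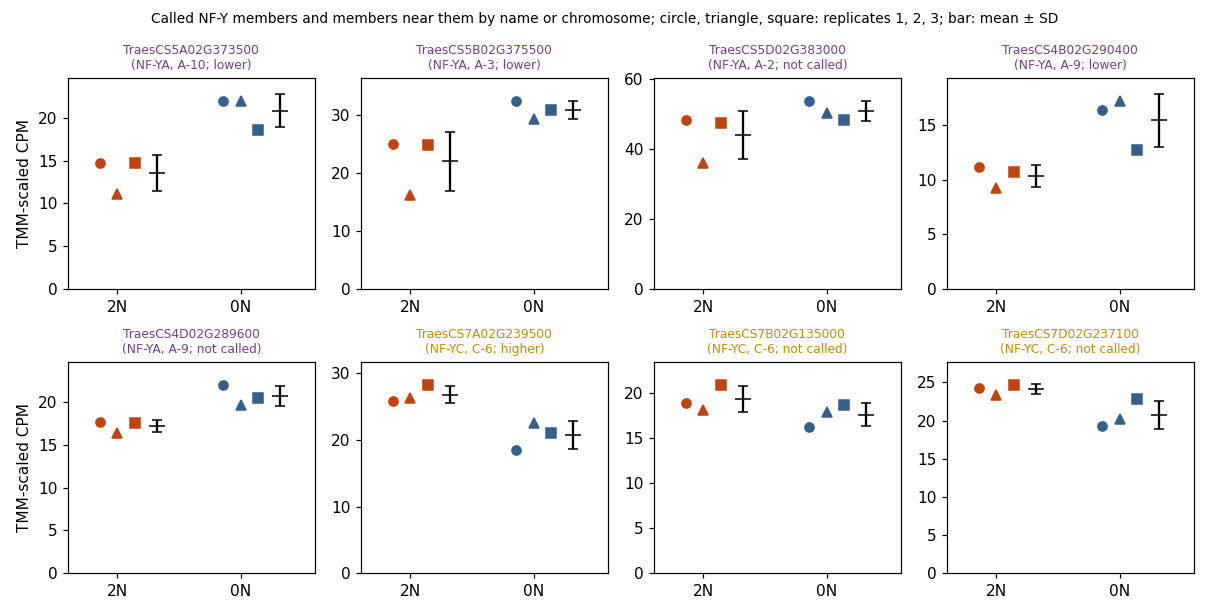
TMM-scaled CPM of 8 NF-Y members in every library, with 2N left of 0N; circles, triangles and squares are replicates 1, 2 and 3, and the bar gives the mean ± SD. The called TraesCS5A02G373500, TraesCS5B02G375500 and TraesCS4B02G290400 lie lower and TraesCS7A02G239500 lies higher in 2N without overlap. TraesCS4D02G289600 (lower) and TraesCS7D02G237100 (higher) do not overlap either, but were not called. The triangle of 2N is the lowest of its group in each NF-YA panel.

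NF-YB, a partner in the histone-fold pair, gave no call by edgeR among 18 tested genes. At an unadjusted p under 0.05, 1 was higher and 0 lower (5.56%, against 27.8% of all tested genes), and DESeq2 called 0. The median log2 fold change was 0.081, but -0.014 with library totals and -0.045 to -0.06 with TPM. Fold changes were positive in 10 and negative in 8 members, against 9 and 9 with library totals and 8 and 10 with TPM. In CPM, the groups did not overlap in 5 members, 3 of them higher and 2 lower. That is 27.8% of the class, below the 32.4% of all tested genes.

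The most abundant NF-YB genes were the B-10 and B-2 matches. All 3 B-10 matches, on chromosome group 2, had positive fold changes. TraesCS2A02G173500 was the most abundant, with a mean of 13.2 ± 2.10 TPM in 2N libraries and 11.85 ± 0.771 TPM in 0N libraries (SD, n = 3). It had 11.9, 15.9 and 13.2 CPM in 2N and 10.3, 12 and 11.9 CPM in 0N. Its groups overlapped (log2 fold change 0.26 ± 0.13, edgeR adjusted p = 0.197). TraesCS2B02G199800 had 12.4, 14.2 and 12.5 CPM in 2N against 10.2, 12 and 11.4 CPM in 0N, without overlap in CPM (log2 fold change 0.22 ± 0.11, edgeR adjusted p = 0.233). Summed, the 3 genes had 33.8, 42.3 and 36.3 CPM in 2N and 27.6, 32.9 and 32.4 CPM in 0N, and on this scale the groups stood apart. In TPM the groups overlapped for each of the 3 genes. In the second 2N library these genes were highest, the reverse of what the NF-YA genes showed there.

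B-2, B-3 and B-4 are rice proteins also named HAP3A, HAP3B and HAP3C, which in rice act in chloroplast formation. The 3 B-2 matches summed to 29.2, 27.9 and 27.5 CPM in 2N and 27.9, 26.3 and 29.6 CPM in 0N, with overlap. TraesCS3A02G352900, the most abundant, had 10.4, 9.89 and 10.8 CPM in 2N and 10.5, 8.98 and 10.4 CPM in 0N (log2 fold change 0.056 ± 0.115, edgeR adjusted p = 0.809), and its sign turned with library totals, with TPM and without 0N replicate 2. The 3 B-4 matches on chromosome group 1 all had negative fold changes, between -0.31 and -0.05. Their sum was 16.6, 16.1 and 16.2 CPM in 2N, against 18.7, 18.7 and 19.3 CPM in 0N, so the groups stood apart although no single gene passed. Of the leaf marker genes given above, 21 of 62 tested ones were lower in 2N. Their summed levels overlapped between the groups, but those of chlorophyll a-b binding genes alone stood apart. The part of leaf markers in these values was not tested.

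B-11 is the rice heading-date protein DAYS TO HEADING 8, also called HEADING DATE 5. Its 3 matches were low and their fold changes differed in sign. TraesCS2D02G358300 had 0.841, 0.582 and 1.03 CPM in 2N and 0.892, 1.69 and 1.41 CPM in 0N (log2 fold change -0.70 ± 0.33, edgeR adjusted p = 0.186). TraesCS2A02G359400 had 0.601, 1.05 and 1.21 CPM in 2N and 1.13, 1.69 and 1.29 CPM in 0N (log2 fold change -0.519 ± 0.315, edgeR adjusted p = 0.316). Both overlapped between groups, at 10.25 to 28.5 reads a library, and neither passed in any of 13 alternatives. TraesCS2B02G378700, the match on 2B, had 2.82, 2.50 and 2.36 CPM in 2N and 2.14, 1.87 and 1.70 CPM in 0N (log2 fold change 0.43 ± 0.21, edgeR adjusted p = 0.2). Its groups did not overlap in CPM but met at 2.77 TPM, and it was chosen after its values were seen.

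6 NF-YB genes were not tested, with at most 2 reads in any library. They include both matches to B-6, the LEAFY COTYLEDON 1-LIKE protein of Arabidopsis embryos, which together had 1 read, and both matches to B-5. The B-5 matches had at most 2 reads a library in 2N and are at 0 in every 0N library, which is under the floor of 3 reads in both groups. 3 further genes whose deposited name is the histone-fold domain CBFD_NFYB_HMF lay outside the rule and were tested. TraesCS3B02G487800, TraesCS3D02G443500 and TraesCS3A02G450700 averaged 29.8, 25.1 and 22.96 TPM in 2N and 33.4, 26.7 and 25.01 TPM in 0N, above every NF-YB member, with log2 fold changes between -0.06 and 0.02 (edgeR, 0 called, 0 at an unadjusted p under 0.05, 0 by DESeq2).

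NF-YC, the other partner in the pair, had the highest median level per gene among the tested genes only. Its 9 tested genes had a median level of 17.0 TPM, against 6.03 TPM in NF-YA and 7.10 TPM in NF-YB. This median leaves out 12 of the 21 NF-YC genes, which had at most 13 reads in any library, while all 19 NF-YA genes were tested. The 6 tested C-6 matches held most of the NF-YC level, at 10.8 TPM or more each over all libraries. All 6 had positive fold changes, between 0.13 and 0.37. That direction held in all 14 alternatives, also with library totals and TPM. There the median log2 fold change of all genes was -0.093 and -0.085 to -0.097, against 0.002 in the main fit. Over the class, 7 of 9 fold changes were positive and the median was 0.216, against 6 of 9 and a median of 0.117 to 0.12 with library totals and TPM. At an unadjusted p under 0.05, 4 members were higher and 0 lower (44.4%, against 27.8% of all tested genes), and DESeq2 called 0.

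TraesCS7A02G239500 on 7A, similar to C-6, was the gene called higher in 2N. It had 25.8, 26.3 and 28.2 CPM in 2N, against 18.4, 22.6 and 21.1 CPM in 0N. Every 2N library lay above every 0N library, with a log2 fold change of 0.37 ± 0.10 (edgeR adjusted p = 0.0229). The call ended with DESeq2 (adjusted p = 0.0511), with library totals (0.0767), with TPM (0.0869 and 0.0874), and when 2N replicate 3 (0.101), 0N replicate 1 (0.131) or 0N replicate 3 (0.0606) was left out. It passed in 7 of 14 alternatives, and the adjusted p ran from 0.012 to 0.131 over them. Casparian strip genes, markers of the endodermis, were higher in 2N in 4 of 6 tested cases, and their part in this rise was not tested.

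The matches on 7B and 7D had smaller changes. TraesCS7D02G237100, the most abundant NF-YC gene with a mean of 30.8 ± 0.554 TPM in 2N libraries and 28.4 ± 2.63 TPM in 0N libraries (SD, n = 3), had 24.3, 23.4 and 24.7 CPM in 2N and 19.3, 20.3 and 22.8 CPM in 0N. Its groups did not overlap in CPM, but did in TPM (log2 fold change 0.22 ± 0.10, edgeR adjusted p = 0.165). TraesCS7B02G135000 had 18.9, 18.1 and 20.9 CPM in 2N and 16.2, 17.9 and 18.7 CPM in 0N, with overlap (log2 fold change 0.13 ± 0.10, edgeR adjusted p = 0.448). TraesCS7B02G248300 and TraesCS7D02G344400, also C-6 matches on group 7, had 0 reads in every library.

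The C-6 matches on chromosome group 5 were not called. TraesCS5D02G265000 had 21.6, 17.6 and 19.95 CPM in 2N and 15.99, 17.4 and 16.1 CPM in 0N (log2 fold change 0.255 ± 0.105, edgeR adjusted p = 0.127). Its groups just did not overlap in CPM, but did in TPM. TraesCS5B02G255900 had 15.7, 11.9 and 15.2 CPM in 2N and 10.9, 11.2 and 13.0 CPM in 0N, with overlap (log2 fold change 0.29 ± 0.13, edgeR adjusted p = 0.153). Without 2N replicate 2 it passed (log2 fold change 0.405, edgeR adjusted p = 0.0353). TraesCS5A02G256500 had 12.01, 9.89 and 15.3 CPM in 2N and 10.8, 8.74 and 11.5 CPM in 0N, with overlap (log2 fold change 0.26 ± 0.16, edgeR adjusted p = 0.331).

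Counts of all 9 tested NF-YC genes were not whole in any of the 6 libraries, as were those of 11 NF-YB and 6 NF-YA genes. The division of reads between similar copies is therefore uncertain for them. A sum over copies depends less on it. The C-6 matches on group 7 summed to 69.0, 67.8 and 73.8 CPM in 2N and 53.9, 60.7 and 62.6 CPM in 0N, without overlap. Those on group 5 summed to 49.3, 39.4 and 50.5 CPM in 2N and 37.8, 37.3 and 40.6 CPM in 0N, with overlap.

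C-4 matches did not share the positive fold changes of C-6. The 3 tested ones, on chromosome group 6, summed to 14.5, 15.01 and 15.3 CPM in 2N and 16.2, 18.3 and 14.98 CPM in 0N, with overlap, and their fold changes lay between -0.22 and 0.02. None of them was called by edgeR or DESeq2, and none had an unadjusted p under 0.05. The 7 C-4 matches on group 7 had at most 10 reads in any library and were not tested. Of the 12 untested NF-YC genes, TraesCS1B02G366800, similar to C-3 and chosen after its values were seen, had 3, 0 and 5 reads in 2N and 13, 8 and 7 reads in 0N. Its groups did not overlap, and without a filter its adjusted p was 0.0616 by edgeR.

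**Figure D3:**
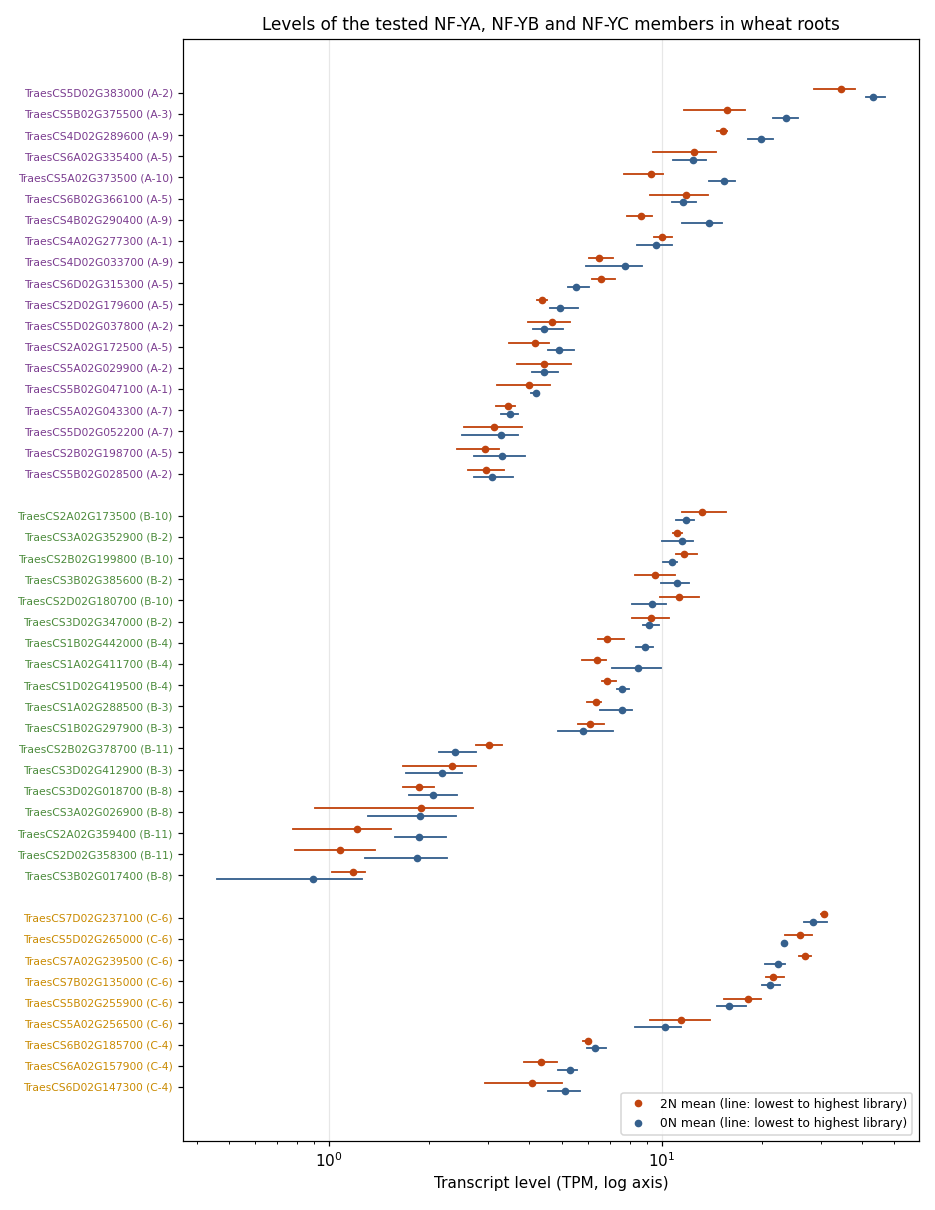
Level of the 46 tested NF-Y members in TPM on a log axis, ordered by mean level within NF-YA (top), NF-YB (middle) and NF-YC (bottom); points are means of 3 libraries and lines run from the lowest to the highest library, with 2N above 0N. TraesCS5D02G383000 is the highest at 34.55 TPM in 2N and 43.0 TPM in 0N, and the C-6 matches lead NF-YC.

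Summed over all members of a class, NF-YA had 221.7, 175.8 and 221.8 CPM in 2N, against 237.2, 229.8 and 230.2 CPM in 0N. NF-YB had 104.7, 113.5 and 107.8 CPM in 2N and 100.7, 103.5 and 107.5 CPM in 0N. NF-YC had 134.3, 123.3 and 141.1 CPM in 2N and 110, 118.1 and 120.1 CPM in 0N. The groups stood apart for NF-YA, lower in 2N, and for NF-YC, higher in 2N, and overlapped for NF-YB. These sums have no test. The log2 ratio of the NF-YA sums was -0.171, but -0.066 without 2N replicate 2. On the TPM scale the NF-YB sum averaged 111.8 ± 4.42 TPM in 2N libraries and 115.4 ± 5.28 TPM in 0N libraries (SD, n = 3), so its direction turned with the scale. The NF-YC sum was 153.7, 142.1 and 159.7 TPM in 2N and 141.4, 140.2 and 150 TPM in 0N, and there its groups overlapped, while those of NF-YA stood apart on both scales.

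The balance between the classes can be read within a library, where scaling cancels. Per transcript length, NF-YA made up 40.3%, 35.3% and 39.5% of the summed NF-Y level in 2N and 44.9%, 43.0% and 42.2% in 0N. NF-YC made up 34.9%, 35.5% and 35.9% in 2N and 30.5%, 31.8% and 31.9% in 0N. The ratio of NF-YA to NF-YC was 1.15, 0.99 and 1.10 in 2N, against 1.47, 1.35 and 1.32 in 0N. Both shares and the ratio stood apart between the groups. The share of NF-YB was 24.8%, 29.2% and 24.6% in 2N and 24.5%, 25.2% and 25.8% in 0N, with overlap.

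**Figure D4:**
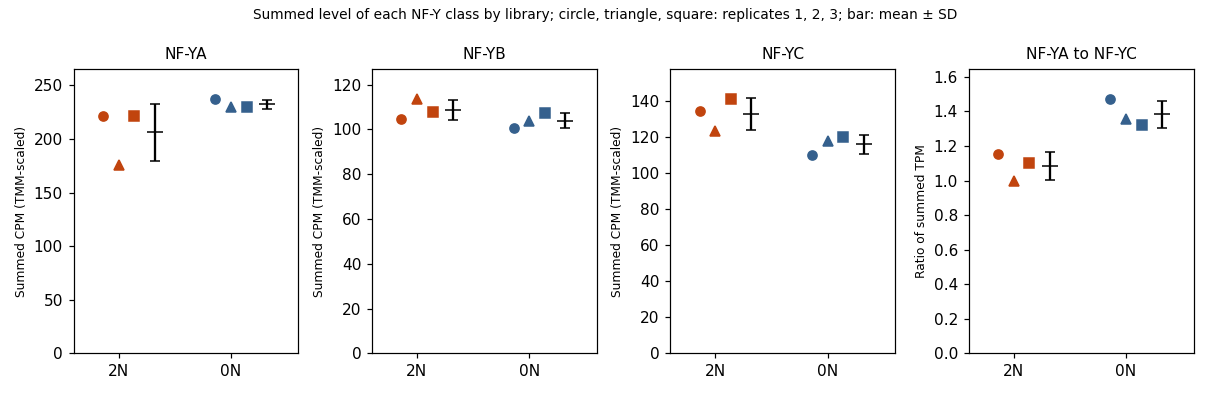
Summed TMM-scaled CPM of all NF-YA, NF-YB and NF-YC members by library and, at the right, the ratio of summed NF-YA to summed NF-YC TPM, with 2N left of 0N; circles, triangles and squares are replicates 1, 2 and 3 and bars give the mean ± SD. The ratio lies between 0.99 and 1.15 in 2N and between 1.32 and 1.47 in 0N.

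Other genes of the NF-Y pathway were taken from 5 lists. CCT-domain proteins, which can join the NF-YB and NF-YC pair, gave 5 rises and 10 falls among 47 tested of 68 genes, with a median log2 fold change of -0.21. That is 31.9% of those tested, against 15.5% of all genes. The number of falls was 5 when 2N replicate 3, 0N replicate 1 or 0N replicate 3 was left out. CONSTANS-LIKE genes are best known from light and flowering responses in leaves, and 21 of the 62 tested leaf markers above were lower in 2N, by chlorophyll a-b binding (18) and photosystem I (3) genes. Their part in these falls was not tested.

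Among the falls, 3 of 6 tested matches to CONSTANS-LIKE 13 were lower. TraesCS4B02G155800 had the smallest p of the list, with 5.55 ± 0.480 TPM in 2N libraries and 15.5 ± 1.74 TPM in 0N libraries (SD, n = 3; log2 fold change -1.38 ± 0.11 SE, edgeR adjusted p = 1.52e-06), and passed in all 14 alternatives. Both tested matches to CONSTANS-LIKE 10 rose, 1 of which passed in 5 of 14 alternatives. All 3 tested matches to the pseudo-response regulator PRR1 or APRR1, a core protein of the circadian clock, rose as well. 2 of the 3 passed in all 14 alternatives and the third in 12, without the 2 TPM settings. No other tested pseudo-response regulator match (APRR3, APRR7, APRR9, PRR37, PRR73 and PRR95) was called higher, and 1 of 3 PRR95 matches was called lower.

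The florigen-like list had 13 genes, of which 1 was tested. TraesCS6A02G214400, similar to FLOWERING LOCUS T, had 3.50 ± 0.344 TPM in 2N libraries and 2.05 ± 0.498 TPM in 0N libraries (SD, n = 3; log2 fold change 0.87 ± 0.26 SE, edgeR adjusted p = 0.0371). It passed in 7 of 13 alternatives, with adjusted p from 0.021 to 0.147. DELLA proteins, gibberellin-controlled repressors, gave 0 calls in 6 tested genes by edgeR and by DESeq2, with 1 higher at an unadjusted p under 0.05. B3 factors gave 0 calls in 3 tested genes and the other histone-fold proteins, subunits of DNA polymerase epsilon, 0 in 2, both by edgeR and by DESeq2 and with 0 at an unadjusted p under 0.05.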

How the data were processed

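The authors deposited expected counts (estimated reads per gene, not normalized) and TPM values, per the file headers; the TPM columns sum to 1e+06. HISAT and Bowtie2 are named in the submitters' processing notes, without versions. Not given in the sources used here are the counting program, genome build, annotation and strand. 45.1% of all count values are not whole (tolerance 1e-06). The reference table of 155467 genes matched 0 identifiers, so chromosomes are the codes inside the identifiers.

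Expected counts were rounded. Genes were kept by edgeR's filterByExpr (minimum count 10, minimum total 15), scaled by TMM and tested across all kept genes with the 2-sided quasi-likelihood test of edgeR (robust dispersions), Benjamini-Hochberg adjusted over them, threshold 0.05. Approximate standard errors were obtained by dividing each log2 fold change by the root of its F statistic. Levels between genes are compared in TPM. Depth was similar in all libraries, and floors of 3 reads cover counting error only. The tools were DESeq2 1.42.0, limma 3.58.1 and edgeR 4.0.16 under R 4.3.3, and matplotlib 3.10.9. On simulated counts, false calls stayed within the threshold when dispersions followed the trend with abundance, but exceeded it when each gene had its own estimated dispersion, so adjusted p-values near the threshold may be too small. Alternatives were other scalings, filters, DESeq2, limma-trend on log2(TPM + 0.5) and log2(TPM + 0.1), a replicate block and leaving out each library.

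The members, lists and settings were chosen with earlier results of these data known. Named members are those called, the 3 most abundant of each class, the 2 with the largest change not called in each class, the matches sharing name and chromosome group with a called member, and the called gene with the smallest p of each list. Others are named as chosen later or only counted. Library pairs within a group differed beyond counting noise (chi-square over degrees of freedom 2.76 to 5.67).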

Additional observations from a re-analysis of the deposited data

How the results depend on the processing

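In 14 alternatives to the edgeR fit, the number of NF-YA falls stayed at 2 to 4, and no NF-YB gene was called. The single NF-YC rise was lost (0 called) with library totals, DESeq2 and both TPM settings, and leaving out 1 library gave 0 to 2. Over all tested genes, the 4109 rises became 2493 and 2465 with limma-trend on log2(TPM + 0.5) and log2(TPM + 0.1), and 2622 to 4285 without 1 library. Library totals gave 2920 rises and 6208 falls, against 4109 and 4306. TraesCS3A02G352900 had a log2 fold change of 0.056, but -0.04 with library totals, -0.042 and -0.043 with the TPM settings, and -0.028 to 0.091 without 1 library, where the negative value is that without 0N replicate 2. The cause was not tested.

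Replicate numbers are shared by the groups. Deviations from the group mean had correlations of -0.005, -0.106 and 0.026 in same-numbered libraries and -0.102 to 0.105 in unlike-numbered ones. With 3 libraries a group, these values cannot tell whether same-numbered libraries share more than a number. With a replicate block, 3454 genes rose and 3845 fell, and NF-YA kept 3 falls and NF-YC 1 rise. At this depth, NF-YB and NF-YC genes with few reads could not be compared.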
